A study of Mus musculus with 3 samples.

Results

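The Hox cluster genes examined here numbered 38 of the 39 clustered Hox genes that had a probe on the array, among 32524 genes or unnamed accessions in all. They were chosen by symbol, and every probe whose RefSeq accession belonged to one of them was used, whatever its signal. HoxA on chromosome 6 and HoxB on chromosome 11 gave 10 genes each, and HoxC on chromosome 15 and HoxD on chromosome 2 gave 9 genes each. The cells were primary fibroblasts of C57BL/6J mouse embryos at E10.0 that carried Rb-/- and ATM-/-, so both deletions were shared by all 3 groups, the control included. The control group had been transfected with empty vector, the knockdown group with Dnmt1 shRNA, aimed at the enzyme that copies DNA methylation onto new strands, and the last group with an ATM vector, ATM being a kinase that signals DNA breaks. The array of the last group is called ATM-labelled below. Selection in puromycin at 4 µg/ml for 3 days was followed by 4 more days of culture, and RNA was measured on 1 Agilent 1-colour array per group. The number of arrays limits the precision: with 1 per group there is no replicate, so no difference below has a test or a p-value, and a difference between groups cannot be told apart from a difference between cultures.

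Hox genes encode homeodomain transcription factors that give cells their place along the body axis. Within a cluster, the low-numbered genes lie at the 3′ end and are switched on in the head, neck and upper trunk, and the high-numbered genes lie at the 5′ end and are switched on toward the tail and the ends of the limbs. Genes with the same number in different clusters are paralogues. Cultured fibroblasts are known to keep the Hox pattern of the site they came from, and Polycomb and Trithorax proteins hold the genes off or on through cell division.

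The 4 promoter windows below show members of different behaviour, Hoxa7 and Hoxa9 in HoxA and Hoxb4 and Hoxb8 in HoxB. Each runs from 250 bases before to 50 after the start of the gene, from RefSeq on GRCm38.p6. Capitals mark each CG, the dinucleotide that Dnmt1 keeps methylated. The windows are chr6:52218524-52218823 on the minus strand for Hoxa7, chr6:52227321-52227620 on the minus strand for Hoxa9, chr11:96318017-96318316 on the plus strand for Hoxb4 and chr11:96281655-96281954 on the plus strand for Hoxb8.
Hoxa7 promoter: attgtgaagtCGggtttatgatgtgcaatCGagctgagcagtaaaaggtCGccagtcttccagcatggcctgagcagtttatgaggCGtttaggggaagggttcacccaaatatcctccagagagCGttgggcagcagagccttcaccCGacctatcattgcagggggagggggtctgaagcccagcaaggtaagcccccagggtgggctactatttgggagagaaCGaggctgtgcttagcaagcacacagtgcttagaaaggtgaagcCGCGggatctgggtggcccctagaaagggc
Hoxa9 promoter: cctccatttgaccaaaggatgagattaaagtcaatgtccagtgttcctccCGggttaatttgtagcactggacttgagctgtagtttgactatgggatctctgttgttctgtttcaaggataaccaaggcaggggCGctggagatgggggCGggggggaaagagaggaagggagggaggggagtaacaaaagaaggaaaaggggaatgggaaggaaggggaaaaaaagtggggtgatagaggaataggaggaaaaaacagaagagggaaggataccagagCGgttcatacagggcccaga
Hoxb4 promoter: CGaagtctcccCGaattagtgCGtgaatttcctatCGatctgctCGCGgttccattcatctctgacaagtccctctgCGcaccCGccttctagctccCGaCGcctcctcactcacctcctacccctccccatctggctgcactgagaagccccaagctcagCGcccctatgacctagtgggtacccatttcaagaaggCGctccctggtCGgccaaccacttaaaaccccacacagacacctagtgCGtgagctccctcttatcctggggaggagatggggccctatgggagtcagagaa
Hoxb8 promoter: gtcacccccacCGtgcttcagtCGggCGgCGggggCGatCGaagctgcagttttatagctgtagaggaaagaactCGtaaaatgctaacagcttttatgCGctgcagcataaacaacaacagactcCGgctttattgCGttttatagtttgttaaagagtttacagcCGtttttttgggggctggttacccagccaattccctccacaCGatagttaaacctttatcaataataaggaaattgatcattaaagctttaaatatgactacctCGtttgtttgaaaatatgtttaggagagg

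These windows held 9 CG for Hoxa7, 4 for Hoxa9, 14 for Hoxb4 and 13 for Hoxb8. A promoter was listed for 22 of the 38 members, with 24 windows in all, and the number of CG ranged from 4 to 45 with a median of 14.5. Over all 32851 windows of the same length the median was 7. The 6 windows of members well above background on the control array had a median of 11.5 (range 4 to 29). For the 4 windows of members well above background on the ATM-labelled array alone the median was 17 (range 12 to 26), and for the 14 windows of members dim on every array it was 17.5 (range 4 to 45). The ranges overlapped throughout. Windows were listed for 6 of the 9 members detected on the control array. Of the 9 detected on the ATM-labelled array alone, 3 had a window, and Hoxb5, Hoxb6 and Hoxb7 had none. With so few windows, it cannot be told whether the number of CG separates members that were read from members that were dim. The letters TGATNNAT, a composite site of Pbx and Hox proteins searched on both strands, occurred in 4 of the 24 windows (16.7%) and in 8.8% of all windows. The letters AGGTCA, bound by retinoic acid receptors, also searched on both strands, occurred in 7 of the 24 (29.2%) and in 16.3% of all. Hoxb8 held 1 match to TGATNNAT, whose free positions can hold a CG, Hoxb4 held 1 match to AGGTCA, and Hoxa7 and Hoxa9 held neither. DNA methylation itself was not measured on these arrays.

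Whether a Hox gene could be read at all differed between the arrays. A gene counts as detected where at least 1 of its probes was marked by the scanner software as well above background. The Hox genes detected numbered 9 of 38 on the control array, 9 on the knockdown array and 18 on the ATM-labelled array. The same 9 genes were detected on all 3 arrays: Hoxa2, Hoxa3, Hoxa4, Hoxa5, Hoxa7, Hoxa9, Hoxb2, Hoxb3 and Hoxb4. Of the 29 members dim on the control array, 0 were detected on the knockdown array, against 12.0% of all 14954 genes dim there. On the ATM-labelled array, 9 of those 29 were detected (31.0%), against 5.97% of all genes dim on the control array. They were Hoxa6, Hoxa10, Hoxb5, Hoxb6, Hoxb7, Hoxb8, Hoxb13, Hoxc6 and Hoxc12. Of the 9 members detected on the control array 0 were dim on either of the others, against 1.76% of all genes detected there for the knockdown array and 5.36% for the ATM-labelled array. Of the 29 members dim on the knockdown array, 9 were detected on the ATM-labelled array, against 3.53% of all genes, and 0 of 9 went the other way, against 10.5%.

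**Figure D1:**
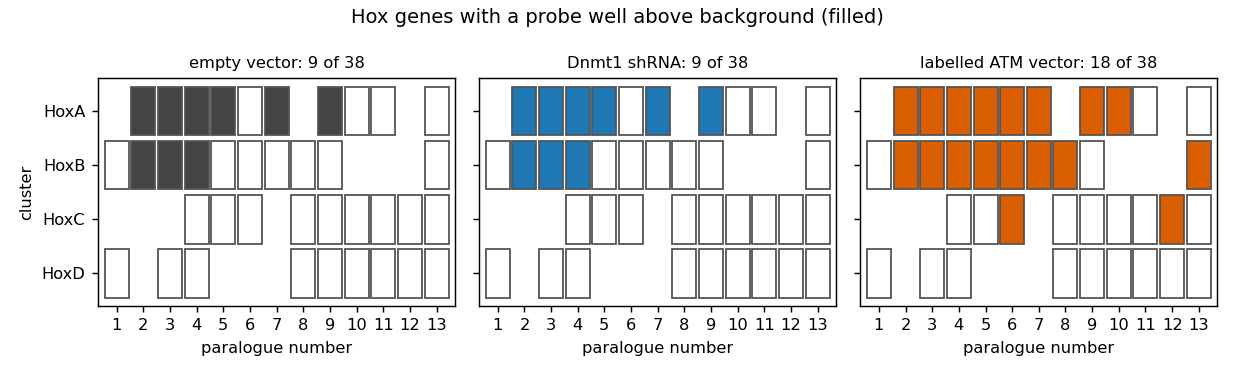
Each box is 1 of the 38 Hox genes, placed by cluster (vertical axis) and paralogue number (horizontal axis), and a filled box had a probe well above background on that array. The filled boxes number 9, 9 and 18, HoxD is empty on all 3 arrays, and the ATM-labelled array fills HoxA from 2 to 7 and HoxB from 2 to 8 without a gap.

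The clusters differed in this count. In HoxA the genes detected were 6 of 10 on the control array and 8 on the ATM-labelled array, and in HoxB they were 3 and 8 of 10. In HoxC 0 of 9 were detected on the control and knockdown arrays and 2 on the ATM-labelled array. None of the 9 HoxD genes was detected on any of the 3 arrays. By paralogue number, genes 1 to 3 gave 4 of 7 detected on each array, genes 4 to 8 gave 4 of 15 on the control array and 10 of 15 on the ATM-labelled array, and genes 9 to 13 gave 1 and 4 of 16. All 3 genes of paralogue group 6 (Hoxa6, Hoxb6 and Hoxc6) were dim on the control array and detected on the ATM-labelled array. Of the extra genes of that array, Hoxa6 and Hoxb5 to Hoxb8 lay in the middle of HoxA and HoxB, and Hoxa10, Hoxb13, Hoxc6 and Hoxc12 lay elsewhere. Most low-numbered genes of HoxA and HoxB were already detected on the control array, so few of them could be extra.

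**Figure D2:**
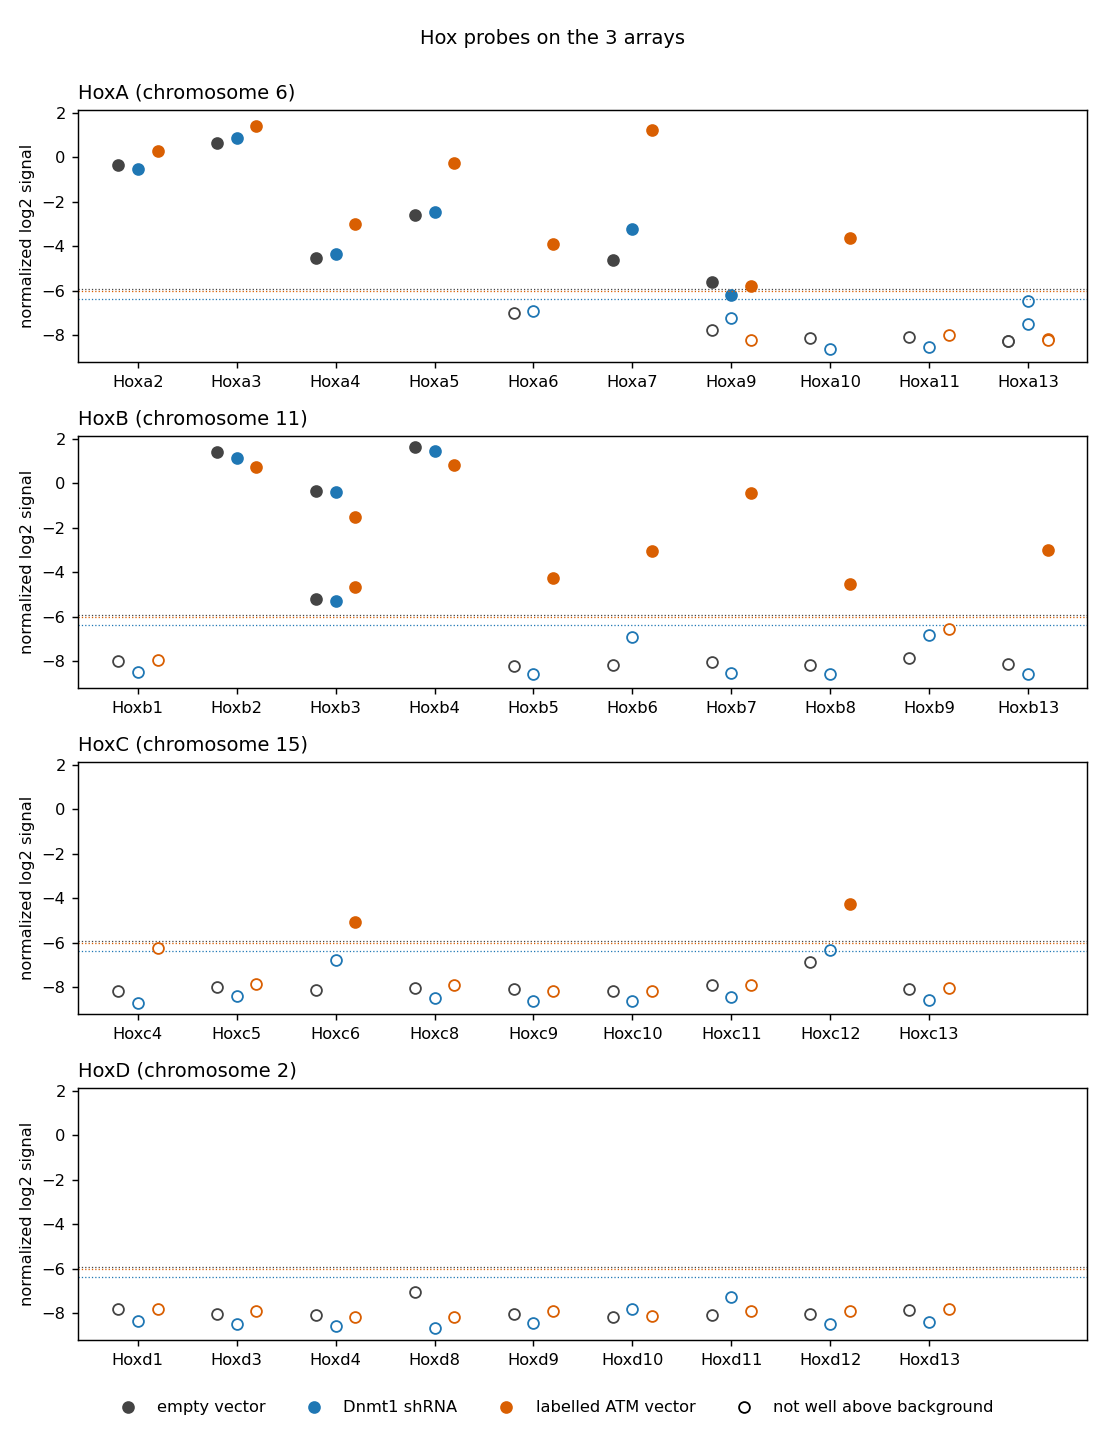
The vertical axis is the log2 processed signal minus the 75th percentile of the array, and each circle is 1 probe on 1 array. Open circles were not well above background, and dotted lines mark the lowest normalized signal well above background, at -5.93, -6.36 and -6.01 for the control array, the knockdown array and the ATM-labelled array. Levels of different probes are not comparable, so the plot is read within a gene, where Hoxa7 and Hoxb7 show the widest gaps.

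The arrays differed somewhat in what could be read: the knockdown array had the most probes well above background and the lowest readable intensity. The 12.0% of genes dim on the control array that were detected there is to be read beside that lower limit. Probes well above background made up 55.1%, 59.6% and 55.0% of 39404 probes on the control array, the knockdown array and the ATM-labelled array, and the lowest intensity so marked was 37.8, 25.1 and 32.7. Repeated spots of a probe had a median SD of 0.046 to 0.052 on the log2 scale, a technical spread. The Dnmt1 probe read 4908, 956 and 3169 on the 3 arrays in that order, 4.58-fold lower after scaling on the knockdown array. The readable Atm probe of 2 read 430, 366 and 409, and its place relative to the deletion and the vector was not known, so it does not check the ATM label. The control and knockdown arrays shared slide 1 and scan 1, whereas slide 2 and scan 2 held the ATM-labelled array only, so in each of its comparisons slide and group cannot be told apart. Of 15 fibroblast markers 14, 15 and 15 were detected, in the order above, with summed intensities of 1344437, 1310553 and 1738783. Detected epithelial markers numbered 6, 9 and 6 of 12 (summed 6102, 7169 and 5838), endothelial markers 2, 4 and 2 of 8 (4685, 3903 and 6410), blood markers 3, 2 and 2 of 8 (12303, 14934 and 10657), neural markers 6, 6 and 7 of 11 (25850, 28436 and 30251) and skeletal and heart muscle markers 2, 5 and 3 of 11 (2407, 3269 and 7585). The sums are of unscaled intensities over all probes, dim ones included, and a single probe can make up most of a sum. In the endothelial sums 1 Kdr probe read 4542, 3738 and 6248, and in the blood sums 1 Itgam probe read 9529, 9346 and 8468. The sums therefore do not give the level of a cell type. The markers Cdh5 of endothelium, Epcam of epithelium, Myod1 and Myog of skeletal muscle and Sox2 of neural progenitors were dim on all 3 arrays. Ptprc of blood was dim on all but the control array. Other markers of the same lists were readable on all 3 arrays, among them Kdr, Krt19, Tnnt2, Sox1 and Itgam. The dim markers therefore do not show that a cell type was absent. Markers moved on both other arrays relative to the control array. On the knockdown array the 9 epithelial markers that could be compared held 4 past 2-fold upward and 0 downward (Krt18 at least 39.8-fold, Krt8 at least 22-fold and Krt14 4.24-fold higher), and of 15 fibroblast markers 3 were higher and 0 lower (Thy1 at least 36.2-fold higher). On the ATM-labelled array 1 of 6 epithelial markers was higher and 2 lower (Krt14 63.1-fold higher, Krt19 5.41-fold and Cldn7 3.21-fold lower). Of its 15 fibroblast markers 1 was higher and 3 lower (S100a4 3.38-fold higher, Lum 9.23-fold, Twist2 8.33-fold and Dcn 2.15-fold lower), and all 3 tested muscle markers were higher (Tnni2 7.94-fold, Tnnt2 3.26-fold and Tnnt3 at least 4.02-fold). In bulk RNA, fewer cells of a type and less RNA per cell cannot be told apart, and the part of these markers in the Hox values was not tested.

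Which Hox genes differ where Dnmt1 is depleted was read from the knockdown array over the control array. Of the 9 members tested, which means detected on at least 1 of the 2 arrays, 1 was at least 2-fold higher and 0 were at least 2-fold lower. Among all genes, 19359 could be tested, with 7.68% of them at least 2-fold higher and 2.23% lower (4.79% and 1.81% with dim signals at their bound). All 9 members were measured on both arrays, and of the 17260 genes so measured 3.38% were higher and 0.991% lower. The median log2 ratio of the members was -0.06, and that of all genes was -0.02. Hoxa7 was the member past 2-fold.

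Hoxa7, a gene of the trunk, had an intensity of 94.9 on the control array and 222 on the knockdown array. After scaling this was 2.62-fold higher (log2 ratio 1.39), which was rank 319 from the top among 17260 genes measured on both arrays. Both signals lay near the low end of the readable range. With the normexp background correction, which adds an offset of 50 that shrinks ratios of dim signals, the log2 ratio was 0.90, under 2-fold. The other 8 members measured on both arrays stayed between -0.62 and 0.22 on the log2 scale.

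In HoxA, Hoxa2, which patterns the second branchial arch and the hindbrain, read 1816 and 1443 on the control and knockdown arrays (log2 ratio -0.17). Hoxa3, needed for the thymus and parathyroid, read 3570 and 3714 (0.22). Hoxa5, which acts in lung and neck, read 386 and 373 (0.12). These 3 differences, and that of Hoxa4 (99.9 and 99.6, 0.16), were near or below the pooled SD of 0.21 between different probes of a gene in this comparison. Scaling by the array median lowers all ratios here, with a median of all genes of -0.25, and then Hoxa3, Hoxa4 and Hoxa5 stood at -0.01, -0.08 and -0.12, so these genes have no clear direction. Hoxa9, known for its role in blood progenitors, read 47.8 and 27.7 by its 1 readable probe (-0.62), both close to the lowest readable signal. Its other probe was dim on every array.

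In HoxB, Hoxb2, a gene of the hindbrain, read 6185 and 4501 (log2 ratio -0.29). Hoxb4, known for expanding blood stem cells, read 7090 and 5654 (-0.16). The 2 probes of Hoxb3 read 1789 and 62.3 on the control array against 1575 and 52.0 on the knockdown array, log2 ratios of -0.02 and -0.10. Of these, Hoxb2 alone differed by more than the pooled SD between probes, which does not measure the spread between cultures. None reached 2-fold. HoxC and HoxD had no readable member on either array. A few of their probes, such as Hoxc6 at 18.9 and Hoxc12 at 25.4, were brighter on the knockdown array than on the control array (8.27 and 20.1) without being marked as well above background, so no fold is given.

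Which Hox genes differ where an ATM vector was transfected was read from the ATM-labelled array over the control array. Members of HoxA, HoxB and HoxC were brighter there, led by Hoxa7 at 57.1-fold and Hoxb7 at least 44.7-fold higher, and no HoxD gene was readable. Of the 18 members tested, 12 were at least 2-fold higher with dim signals as measured, 11 with dim signals at their bound, and 0 were at least 2-fold lower. Among all 18463 genes tested, 8.45% were at least 2-fold higher (6.95% at the bound) and 7.96% lower (6.36% at the bound). Of the 18, 9 were measured on both arrays and 9 only on the ATM-labelled array, so the latter entered the count through their signal on that array. Among the 9 measured on both, 3 were at least 2-fold higher and 0 lower, against 5.69% and 4.38% of 16628 genes. Their median log2 ratio was 0.62, against 0.06 for all genes measured on both arrays. A bound sets the bright signal against the lowest detected signal of the control array, or against the dim signal of the gene where that was higher, and it holds for the processed signal only. With the normexp background correction, 7 of the 9 members with a bound had a ratio under it. The offset of 50 in that correction shrinks ratios of dim signals, so lower ratios are partly built in. On the log2 scale normexp gave 4.91 for Hoxa7 (5.84 here), 4.63 for Hoxb7 (bound 5.48), 1.98 for Hoxb6 (bound 2.88), 1.36 for Hoxa6 (bound 2.01) and 1.04 for Hoxc12 (bound 1.66).

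**Figure D3:**
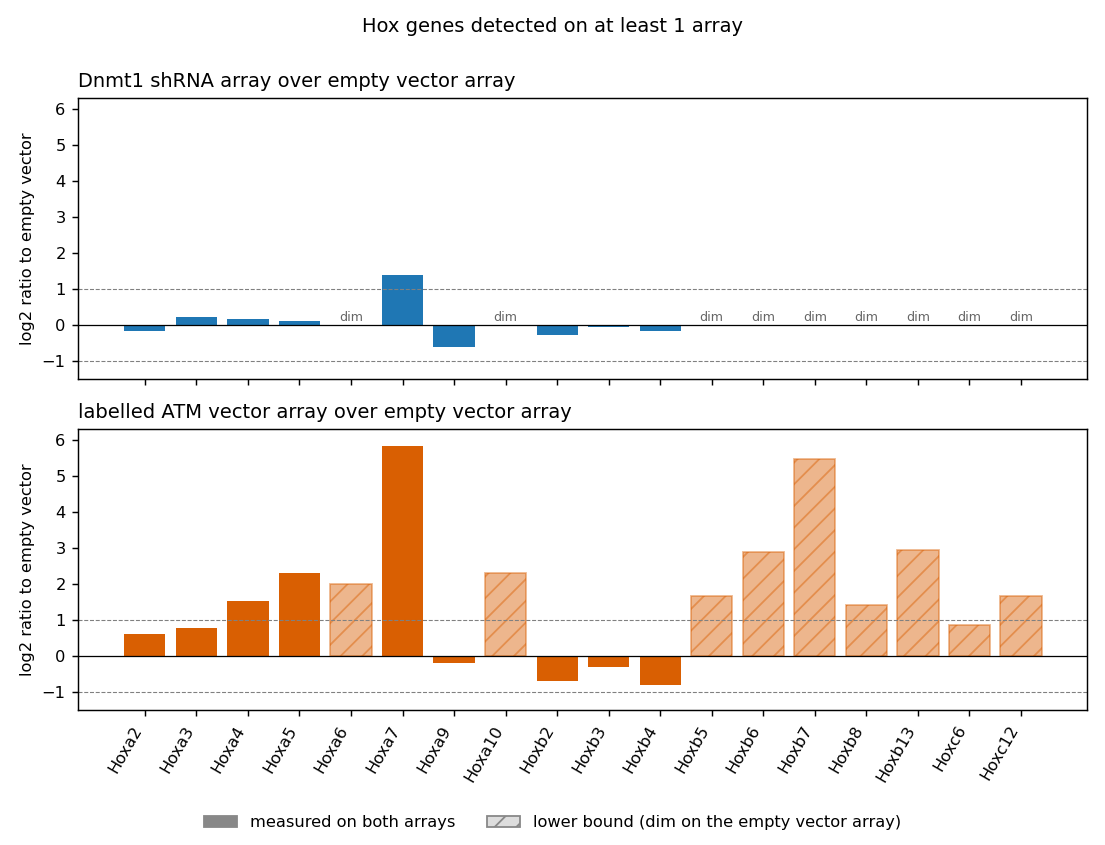
Bars give the log2 ratio to the control array (vertical axis) for the 18 Hox genes detected on at least 1 array (horizontal axis), with the knockdown array above and the ATM-labelled array below. Hatched bars are lower bounds, "dim" marks genes unreadable on both arrays, and dashed lines mark 2-fold. Hoxa7 is the single bar past 2-fold above, and 11 bars are past it below.

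Along HoxA the ratio was larger at each gene from 2 to 5, and largest at Hoxa7. Hoxa2 read 1816 on the control array and 2534 on the ATM-labelled array, 1.54-fold higher (log2 ratio 0.62). Hoxa3 read 3570 and 5529, 1.70-fold higher (0.77). Hoxa4 read 99.9 and 265, 2.92-fold higher (1.54). Hoxa5 read 386 and 1741, 4.97-fold higher (2.31). Each of these 4 ratios was larger than the pooled SD of 0.33 between probes of a gene in this comparison. That SD is a spread between probes on the same arrays and does not measure the spread between cultures. The 2 probes of Hoxb3 lay further apart than that SD, at -1.17 and 0.55 on the log2 scale. All 4 ratios kept their sign under median and quantile scaling.

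Hoxa6 was dim on the control array, at 17.8, and read 139 on the ATM-labelled array, at least 4.04-fold higher. Hoxa7 read 94.9 and 4925, a log2 ratio of 5.84, the fourth highest of the 16628 genes measured on both arrays. Hoxa9 did not follow the run by its 1 readable probe, which gave 47.8 and 37.8, a log2 ratio of -0.20. Both signals lay close to the lowest readable ones of the 2 arrays, 37.8 and 32.7, and its other probe was dim. A break in the run is therefore not shown. Hoxa10, a gene of the lumbar region and uterus, was dim at 8.27 on the control array and read 171 on the ATM-labelled array, at least 4.99-fold higher. Hoxa11 and Hoxa13, which pattern the forearm and the hand and foot, were dim on all 3 arrays. The probe of Hoxa11 was spotted 10 times, with a mean intensity of 8.62, 5.56 and 8.13 on the control array, the knockdown array and the ATM-labelled array.

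HoxB was divided between Hoxb4 and Hoxb5. On its low-numbered side Hoxb2, Hoxb3 and Hoxb4 were readable on all 3 arrays, and Hoxb2 and Hoxb4 were lower on the ATM-labelled array. Hoxb2 read 6185 on the control array and 3453 on the ATM-labelled array, 1.63-fold lower (log2 ratio -0.70). Hoxb4 read 7090 and 3719, 1.73-fold lower (-0.79). The 2 probes of Hoxb3 disagreed: the brighter read 1789 and 724 (-1.17), and the dimmer read 62.3 and 83.0 (0.55), so Hoxb3 has no direction. Hoxb2 and Hoxb4 stood between -0.65 and -0.83 under the normexp, median and quantile alternatives.

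On the high-numbered side, each gene from Hoxb5 to Hoxb8 was dim on the control and knockdown arrays and readable on the ATM-labelled array. Hoxb5 read 7.73, 5.35 and 109 on the 3 arrays in that order, at least 3.17-fold higher than on the control array. Hoxb6 read 8.05, 17.3 and 253, at least 7.38-fold higher. Hoxb7 read 8.78, 5.59 and 1534, at least 44.7-fold higher. The last of the run, Hoxb8, read 7.93, 5.43 and 92.3, at least 2.69-fold higher. Hoxb9 was dim on every array, at 9.98, 18.1 and 22.3. Hoxb13, the posterior member known from the tail and the prostate, read 8.25, 5.36 and 265, at least 7.71-fold higher, although its nearest cluster neighbour Hoxb9 was dim. At the other end Hoxb1, a gene of the hindbrain whose probe was spotted 10 times, was dim at 8.98, 5.75 and 8.45.

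Read by paralogue group, the partners Hoxa4 and Hoxb4, both measured on both arrays, differed in direction. In groups 5 to 7, Hoxa5 and Hoxa7 alone were measured on both arrays. Their partners given below were dim on the control array and entered only through a bright signal on the ATM-labelled array. The direction of those partners was therefore largely fixed in advance, and it cannot be told whether the partners behaved alike. Hoxa4 was 2.92-fold higher and Hoxb4 was 1.73-fold lower on the ATM-labelled array. In group 5 the ratios were 2.31 for Hoxa5 and at least 1.66 for Hoxb5, and in group 7 they were 5.84 for Hoxa7 and at least 5.48 for Hoxb7, all on the log2 scale. Group 6 held Hoxa6 at least 4.04-fold, Hoxb6 at least 7.38-fold and Hoxc6 at least 1.82-fold higher. In group 10 Hoxa10 was readable on the ATM-labelled array and Hoxc10 and Hoxd10 were dim. In group 13 Hoxb13 was readable there and Hoxa13, Hoxc13 and Hoxd13 were dim.

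HoxC and HoxD gave few readable signals. Hoxc6, a gene of the thorax, read 8.27, 18.9 and 62.4 on the control array, the knockdown array and the ATM-labelled array, and its bound of 1.82-fold lay below 2-fold. Hoxc12 read 20.1, 25.4 and 108, at least 3.16-fold higher than with the empty vector. Both were dim on the first 2 arrays. Hoxc4 read 27.7 on the ATM-labelled array, under its lowest readable signal of 32.7. The other 6 HoxC genes (Hoxc5, Hoxc8, Hoxc9, Hoxc10, Hoxc11 and Hoxc13, the last known from hair and nail) and all 9 HoxD genes (Hoxd1, Hoxd3, Hoxd4, Hoxd8, Hoxd9, Hoxd10, Hoxd11, Hoxd12 and Hoxd13, the last known from digits) were dim on all 3 arrays. A dim probe does not show that the gene was silent.

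**Figure D4:**
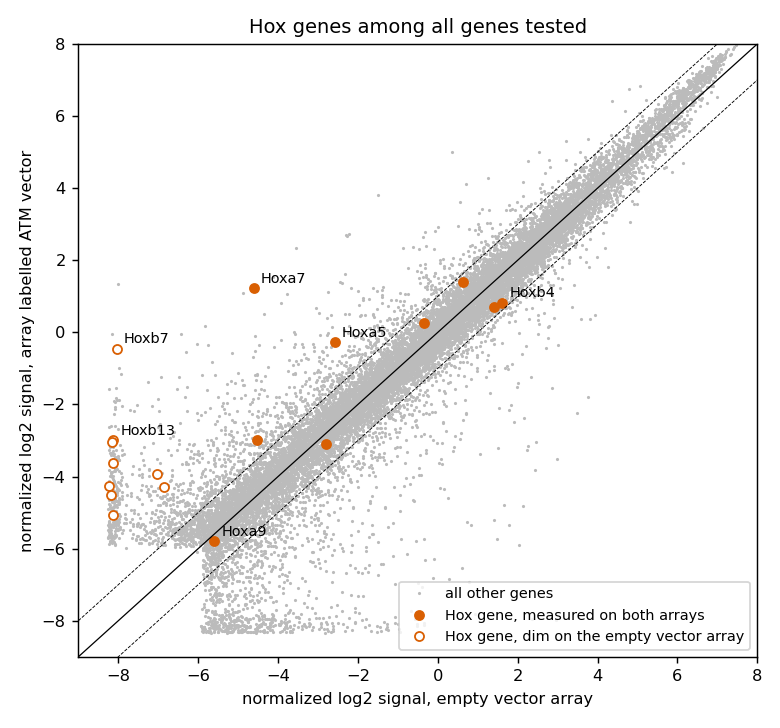
Each grey dot is 1 of the 18463 genes tested, with the normalized log2 signal on the control array on the horizontal axis and on the ATM-labelled array on the vertical axis; a gene with several counted probes is shown at their mean. Circles are the 18 Hox genes tested, filled for the 9 measured on both arrays and open for the 9 dim on the control array; the solid line marks equal signal and the dashed lines 2-fold. Hoxa7 lies far above the line, and Hoxb4 lies just below it.

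The ATM-labelled array was also set against the knockdown array. Of the 18 members tested, 12 were at least 2-fold higher (12 at the bound as well) and 0 lower, against 7.88% and 12.5% of 19525 genes (7.35% and 9.30% at the bound). Of the 9 members measured on both, 3 were higher and 0 lower, against 6.58% and 6.71% of 17045 genes. Hoxa7 was 21.8-fold, Hoxa5 4.58-fold and Hoxa4 2.61-fold higher, and Hoxb7 was at least 60.1-fold, Hoxb13 at least 10.4-fold and Hoxb6 at least 9.92-fold higher. Hoxb4 was 1.55-fold lower. With normexp all 9 members with a bound here had a ratio under it, 21.7-fold for Hoxb7, 4.32-fold for Hoxb13 and 3.36-fold for Hoxb6, and Hoxc6 and Hoxc12 stood under 2-fold at 1.35-fold and 1.74-fold. The normexp offset shrinks these ratios as well. This comparison shares the ATM-labelled array with the one above, so it is no separate evidence. Among the 9 members readable on all 3 arrays, Hoxa7 alone was at least 2-fold higher than with the empty vector on both other arrays, and those 2 comparisons share the control array.

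Genes for proteins that act with or on Hox genes were taken as whole lists. Beside their counts stand the shares of all genes tested, 7.68% at least 2-fold higher and 2.23% lower on the knockdown array and 8.45% and 7.96% on the ATM-labelled array, and with lists this short a count near those shares says nothing of the list. The TALE-class cofactors, homeodomain partners that bind DNA together with Hox proteins, were all readable on all 3 arrays. Of 9 cofactors, 0 were 2-fold different on the knockdown array, and on the ATM-labelled array 0 were higher and 2 lower. Those 2 were Meis2, which read 12322 on the control array and 5194 on the ATM-labelled array (2.16-fold lower), and Pbx3, which read 11379 and 4884 (2.12-fold lower). Meis1 was 1.58-fold higher there. Of 30 Polycomb genes tested, 0 were 2-fold different on the knockdown array, and Pcgf6, a subunit of a variant Polycomb complex, was the 1 gene past 2-fold on the ATM-labelled array (2.23-fold higher). The list medians were 0.05 and -0.02 on the log2 scale. Of 13 genes for Trithorax proteins and histone H3K27 demethylases, 0 were 2-fold different in either comparison with the empty vector, with medians of -0.13 and 0.12.

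Upstream regulators of Hox genes were read in part. Cdx2, Cdx4, the retinoic acid synthase gene Aldh1a2, T and Wnt3a were dim on all 3 arrays. Of 9 genes tested on the ATM-labelled array, 1 was at least 2-fold higher and 1 lower. Egr2, a hindbrain regulator, read 1117 on the control array and 3888 there, 3.83-fold higher. Rarb, a retinoic acid receptor, read 207 and 20.7 by its brighter probe and 41.2 and 7.16 by the other. Both probes were dim on the ATM-labelled array, and by their mean Rarb was at least 2.57-fold lower. On the knockdown array Cyp26b1, an enzyme that degrades retinoic acid, was 2.04-fold higher, and Rarb was 1.94-fold higher.

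Of 13 tested genes near the clusters, with 0 to 4 coding genes between, 0 were 2-fold different on the ATM-labelled array. Among all genes measured on both arrays, 5.69% were at least 2-fold higher and 4.38% lower. The list median was -0.04 on the log2 scale. The largest was Hibadh near HoxA at 0.61, and Evx1 and Evx2, the homeobox genes next to HoxA and HoxD, were dim on all 3 arrays. Skap1, which adjoins HoxB, read 86.5 on the control array, 119 on the knockdown array (log2 ratio 0.63) and 96.9 on the ATM-labelled array (0.30). The 6 tested genes near HoxA or HoxB stood between -0.47 and 0.61 on the log2 scale on the ATM-labelled array. Of these, Skap1 alone directly adjoins its cluster. Of the non-coding RNAs of the clusters, Hoxa11os was dim on the control array at 39.8 and readable at 41.0 on the knockdown array and 49.6 on the ATM-labelled array, and Hoxd3os1 was dim throughout.

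Other regulators of position in the limb and body also differed on the ATM-labelled array, in both directions. Of 19 tested, 4 were at least 2-fold higher (3 at the bound) and 1 lower, against 8.45% (6.95% at the bound) and 7.96% of all genes. Their median ratio was 0.26 on the log2 scale. Lhx9, a LIM homeobox gene of the limb bud, gave log2 ratios of 3.15 and 2.40 by the 2 of its 3 probes that were readable on both arrays. Pax3, a gene of neural crest and muscle precursors, was at least 2.98-fold higher, and Shox2, which shapes the upper limb, was at least 2.65-fold higher. Irx3, an Iroquois homeobox gene, read 8295 on the control array and 521 on the ATM-labelled array, 14.5-fold lower. On the knockdown array 4 of 20 were at least 2-fold higher (2 at the bound) and 0 lower, against 7.68% (4.79% at the bound) and 2.23% of all genes, led by Lhx2 at least 5.47-fold and Dlx5 at least 2.86-fold higher. Of 11 reported Hox targets that could be compared, 0 stood at least 2-fold higher and 4 lower on the ATM-labelled array: Wnt5a 26.4-fold, Dlk1 at least 14.2-fold, Bmp4 2.36-fold and Meis2, which the cofactor list holds too. The shares of all genes were again 8.45% and 7.96%. On the knockdown array 2 of 12 targets were at least 2-fold higher (1 at the bound) and 0 lower, and the 1 was Cdkn1a at 2.44-fold.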

How the data were processed

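The authors deposited 1 scanner file for each array. The submitters' processing notes name Agilent Feature Extraction 10.7.3.1. Its processed signal is an intensity, background-subtracted and spatially detrended, with no scaling between arrays recorded, per the file headers. Flag columns of 0 or 1, other quantities in the deposited files, mark detection, saturated spots and outliers. The deposited value table equals this intensity to within 0.495%, with column medians of 75.2, 80.4 and 68.6, linear and uncentred.

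Control spots and 167 to 235 outlier spots per array were left out, and 0 spots were saturated. The log2 signal was averaged over spots of a probe, then scaled by subtracting the 75th percentile of the array. A probe counted if it was marked as detected on 1 or both arrays of a comparison, and a gene is the mean of its counted probes. A gene dim on 1 array has a bound, described with the results. Of 39429 probes, 26412 matched 1 symbol in RefSeq genes of GRCm38.p6, 0 several and 13017 none. The array design was placed on mm9, so only promoter windows carry coordinates. Of the members, 35 had 1 probe and 3 had several, and 1 further clustered Hox gene is not reported here. Probe sequences were not used here, so cross-hybridisation between paralogues was not checked.

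Fold changes and counts past 2-fold describe these arrays and have no test; the code that computes them was checked on simulated ratios. The members and lists were chosen with earlier results of these data known. By the naming rule, all members are named, with up to 4 genes of largest difference per list. Alternatives covered the background correction (normexp, offset 50, on median signals because the files hold no mean signal), scaling, filter, bounds, outlier spots, choice of probe, source of values and a common detection level. Python 3.11.15, numpy 2.4.6, pandas 2.3.3, R 4.3.3 and limma 3.58.1 were used.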

Additional observations from a re-analysis of the deposited data

How the results depend on the processing

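All 25 member ratios past 2-fold, over the 3 comparisons, kept their sign under every alternative that gave a value. Of them, 24 stayed past 2-fold with dim signals at the bound and 21 with normexp, whose offset shrinks ratios of dim signals. In each comparison of the ATM-labelled array, 9 of these ratios belong to members dim on the other array. Those members passed the filter only through their bright signal, so their sign was largely fixed in advance and is no support. Requiring signal on all 3 arrays left 7 of the 25. Each rests on 1 probe, so that filter could not change its value, and all 7 stayed past 2-fold. The detected genes numbered 9, 9 and 18 with outlier spots kept, and 9, 8 and 18 with a common detection level. The other alternatives used the same detection flags as the main setting, so they could not change this count and are no support for it. The filter on all 3 arrays gives no such count. With 1 array per group no replicate could be left out. No paired analysis was possible because each group has 1 array.

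On the knockdown array against the control array, the count of members at least 2-fold higher was 0 with normexp and 5 without a filter, the count lower was 1 without a filter, and the median was -0.30 with median scaling and -0.39 without a filter. For the ATM-labelled array against the control array, the count higher was 3 with probes readable on all 3 arrays, because fewer genes are tested. The count lower was 1 without a filter and 1 with the brightest probe per gene, where Hoxb3 stood at -1.17. The median of 2.81 became 1.27 with normexp, 0.62 with probes readable on all 3 arrays, 0.13 without a filter and 1.60 at the bound. Against the knockdown array the count higher was 3 with probes readable on all 3 arrays, and the count lower was 1 without a filter and 1 with the brightest probe. The causes of the other changes were not tested.

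Most Hox probes lay near background, so sizes for dim members are bounds only. No alternative replaces a second culture, and the slide cannot be separated from the ATM vector label.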
